A study of Homo sapiens with 80 samples.

Results

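ALOX15, MGP, HPCAL4 and CFI are 4 of the 43388 genes in the deposited tables. They were chosen by their measured values, as genes whose RNA was far higher in wells of a low purity cardiomyocyte differentiation than in wells of a high purity differentiation from day 6 to day 16. The levels on those days are therefore given as a description, with no test. Human pluripotent stem cells had been turned into cardiomyocytes with CHIR99021, an inhibitor of GSK3 that activates WNT signalling, on day 0. IWP2, which blocks the secretion of WNT ligands, came next, and insulin later. The share of cells with cardiac troponin T, read by flow cytometry on day 16, set the class of a differentiation, high or low purity. The multi-omic experiment sequenced poly(A) RNA of the induced pluripotent stem cell line WTC11. Its 25 high purity libraries were wells of a single differentiation at passage 52, and its 31 low purity libraries were wells of a single differentiation at passage 69, so purity, passage and differentiation cannot be told apart and the wells measure only the spread within a differentiation. Each low purity day from 0 to 13 is 4 wells and day 16 is 3. High purity is 4 wells a day up to day 6, then 3, 1, 2 and 3 wells on days 8, 10, 13 and 16. The RNA-only experiment sequenced total RNA of WTC11, of IMR90-4, another induced pluripotent line, and of H9, an embryonic stem cell line, with 1 high and 1 low purity differentiation per line and 1 library at each of 4 stages. Stage 1 was day 0, stage 2 was day 2 (WTC11) or 3, stage 3 was day 4 or 5, and stage 4 was day 6 or 7. The low and high purity differentiations were at passages 69 and 81 in WTC11, 75 and 55 in IMR90-4, and 55 and 58 in H9. Reads per library ran from 6579715 to 18143597 in the multi-omic experiment and from 17990882 to 40357968 in the RNA-only experiment.

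The proteins of these genes act in unlike pathways. ALOX15 is a lipoxygenase that adds oxygen to arachidonic and linoleic acid, also while these are held in membrane phospholipids, and it is known for its induction by the cytokines IL4 and IL13 in blood monocytes and airway epithelium. MGP, matrix Gla protein, is a small secreted protein whose glutamate residues are carboxylated in a vitamin K dependent step. It is made by vascular smooth muscle cells and chondrocytes, keeps arteries and cartilage from mineralising, and binds bone morphogenetic proteins. HPCAL4, hippocalcin-like protein 4, is a calcium-binding protein of the neuronal calcium sensor family and is best known from the brain. CFI, complement factor I, is a serine protease of blood plasma, made mainly by the liver, that cuts the complement fragments C3b and C4b when a cofactor such as CD46 holds them.

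The genes lie on different chromosomes of GRCh38, and RefSeq places no other gene over any of them. ALOX15 (RefSeq gene ID 246) is at chr17:4630919-4641678, MGP (4256) at chr12:14880864-14885854, HPCAL4 (51440) at chr1:39678648-39691433 and CFI (3426) at chr4:109730982-109801999. For HPCAL4 and CFI the 250 bases before the RefSeq start are shown. The promoter set used here held no matched entry for ALOX15 and MGP, so the pair was not chosen by its course. Capitals mark matches to 5 short motifs, searched on both strands: TATAAA of the TATA box, CCAAT of the CCAAT box, GATAAG of GATA factors, AGGTCA of nuclear receptors, and the STAT6 palindrome, which is TTC and then GAA with 4 bases of any kind between. Both sequences are written 5′ to 3′ on the gene's own strand, the minus strand, from RefSeq on GRCh38.p14, at chr1:39691434-39691683 for HPCAL4 and chr4:109802000-109802249 for CFI.
HPCAL4: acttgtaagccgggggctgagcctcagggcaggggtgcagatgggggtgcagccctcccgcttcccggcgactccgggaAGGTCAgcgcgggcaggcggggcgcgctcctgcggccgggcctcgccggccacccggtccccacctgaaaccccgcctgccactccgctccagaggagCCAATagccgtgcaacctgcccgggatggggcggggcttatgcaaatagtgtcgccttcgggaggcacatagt
CFI: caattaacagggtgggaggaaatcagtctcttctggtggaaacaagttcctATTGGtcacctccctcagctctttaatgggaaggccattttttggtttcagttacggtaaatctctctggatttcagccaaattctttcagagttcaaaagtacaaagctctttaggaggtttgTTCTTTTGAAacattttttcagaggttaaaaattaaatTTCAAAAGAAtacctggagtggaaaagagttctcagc
HPCAL4 held the CCAAT box with its first base 73 bases before the start and the nuclear receptor motif at 171 bases. CFI held the CCAAT box on the opposite strand, read as ATTGG, at 199 bases, and the STAT6 palindrome at 75 and at 37 bases. Among 35116 RefSeq promoters of the same length, 32% held the CCAAT box, 12.1% the nuclear receptor motif, 5.38% the STAT6 palindrome, 10.7% the TATA box and 5.65% the GATA motif. The CCAAT box was the motif that both windows held, and it is common. These are matches of letters and not measured binding.

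Levels are given in TPM, a read count per transcript length scaled to a fixed total, so levels of different genes can be set side by side. The 4 genes did not share a course. In low purity wells ALOX15 was the first to be high, peaked on day 6 and was lower on each of the last sampled days, while MGP, HPCAL4 and CFI had higher means on each later day and were highest on day 16. Onset was taken as the first day from which, then and on every later day, all low purity wells were above all high purity wells with a low purity mean of at least 1 TPM. By this rule onset was day 4 for ALOX15, day 6 for MGP and HPCAL4, and day 8 for CFI.

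ALOX15 was low on day 4 and at its top 2 days later. The low purity wells of day 4 held 2.31, 2.82, 3.07 and 4.18 TPM and those of day 6 held 125.6, 126.8, 159.4 and 270.0 TPM. The high purity wells of day 4 ran from 0 to 0.366 TPM, at most 5 reads, and those of day 6 from 0.24 to 1.93 TPM, at most 19 reads. All low purity wells were thus above all high purity wells on both days, and the low purity wells of day 6 shared no range with those of day 4.

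After its peak ALOX15 was lower, but still above its level of day 0. Low purity wells held 68.8, 72.5, 82.4 and 82.6 TPM on day 8, then 84.3, 91.0, 91.8 and 124.1 TPM on day 10. They held 15.6, 17.3, 20.4 and 27.1 TPM on day 13 and 6.77, 7.37 and 13.2 TPM on day 16. No range overlapped that of the next sampled day from day 4 on, and the mean of day 10 was 1.28-fold that of day 8. In high purity wells ALOX15 stayed between 0.24 and 1.93 TPM from day 6 to day 16. The mean of the low purity wells was 183-fold that of the high purity wells on day 6, 166-fold on day 8, 136-fold on day 10 against a single high purity well, 16.2-fold on day 13 and 9.76-fold on day 16.

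MGP, the calcification inhibitor, was higher on every sampled day after day 4 than on the one before. Its low purity wells held 1.51, 1.65, 2.00 and 5.72 TPM on day 6, 8.41, 8.44, 9.52 and 11.03 TPM on day 8, and 26.7, 30.1, 30.9 and 35.7 TPM on day 10. They held 86.9, 88.7, 94.8 and 99.4 TPM on day 13 and 136.8, 147.9 and 170.7 TPM on day 16. Each of these ranges lay above the one before it. From day 6 to day 16 the high purity wells of MGP held 0 to 0.887 TPM, at most 8 reads in a library. The ratio of low to high purity means was 6.70 on day 6 and 23.2 on day 8, and it reached 196 on day 13 and 523 on day 16. The single high purity well of day 10 had no MGP read, and against a floor of 3 reads in that well the low purity mean was at least 61.4-fold higher.

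HPCAL4, the calcium sensor, was present at a low level in undifferentiated cells and was near 0 by day 4. It was then high in the low purity wells alone of these WTC11 wells. On day 0 the high purity wells held 1.72 to 2.49 TPM and the low purity wells 1.02 to 1.90 TPM, ranges that overlapped. By day 4 both classes were at 0.118 to 0.416 TPM. The low purity wells then held 2.19, 2.97, 3.81 and 10.8 TPM on day 6, 22.0, 22.6, 28.6 and 32.9 TPM on day 8, and 53.2, 54.2, 60.9 and 76.2 TPM on day 10. They held 64.6, 65.8, 77.3 and 120.5 TPM on day 13 and 86.0, 90.4 and 151.9 TPM on day 16. The ranges of days 10 and 13 overlapped, as did those of days 13 and 16, so the last 2 steps were not larger than the spread between wells. High purity wells held at most 0.51 TPM from day 6 on. The ratio of means was 49.0 on day 6 and 172 on day 8, and it reached 321 on day 13 and 549 on day 16. On day 10 the high purity well had 3 reads, and the ratio was 299.7 with an exact 95% interval of 102.5 to 1454 for counting error only.

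CFI, the complement protease, was the last to appear. On day 6 its low purity wells held 0.311, 0.528, 0.915 and 1.30 TPM, from 2 to 9 reads, while all 4 high purity wells had no read. The low purity mean of that day was at least 2.503-fold above a floor of 3 reads per high purity well. Low purity wells then held 1.99, 2.24, 3.79 and 4.13 TPM on day 8, 11.7, 12.9, 15.0 and 15.1 TPM on day 10, 46.7, 55.1, 61.9 and 75.6 TPM on day 13, and 88.9, 99.2 and 148.5 TPM on day 16. The range of day 6 overlapped that of day 4, and each range from day 8 on lay above the one before it. In high purity wells CFI held at most 0.284 TPM up to day 13 and 0.381, 0.382 and 0.737 TPM on day 16. The ratio of means was 26.6 on day 8 and 224 on day 16. It was at least 37.8 on day 10 against a floor of 3 reads, and 529 with an exact 95% counting interval of 146 to 4368 on day 13, where the high purity wells had 2 reads in all.

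All 4 genes had every low purity well above every high purity well on days 6, 8, 10, 13 and 16. The same held for 14.5% of the 25664 genes tested on day 6, 30.7% on day 8, 52.3% on day 10, where the high purity class was 1 well, 32.5% on day 13 and 32.1% on day 16. These days chose the genes, so nothing is read from their count. As a sum over cells, a bulk library cannot tell more cells that hold a transcript from more transcript per cell.

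**Figure D1:**
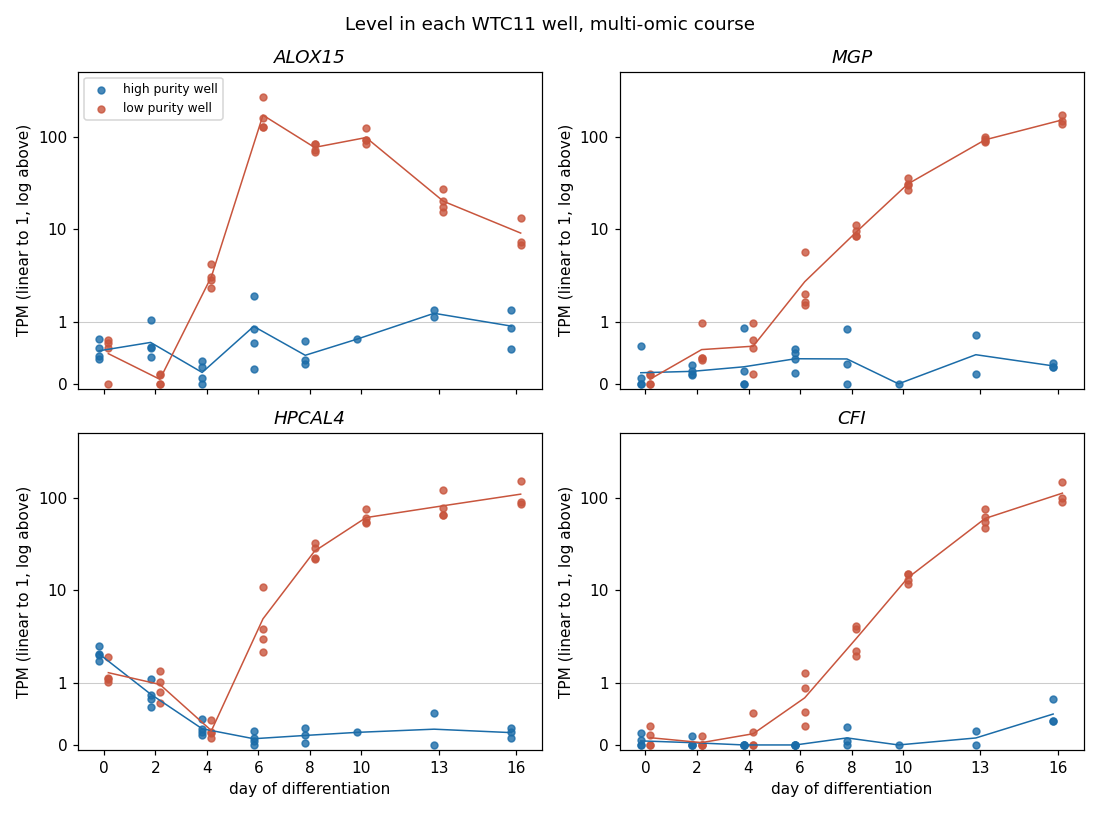
TPM of each gene (y axis, linear up to 1 and logarithmic above) against the day of differentiation (x axis) in each WTC11 well of the multi-omic course. Points are wells, blue for high purity and red for low purity, and lines join class means. ALOX15 peaks on day 6 at a mean of 170.5 TPM, while the other genes are highest on day 16.

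Put on each gene's own peak, the courses separated further. ALOX15 stood at 1.82% of its peak mean on day 4 and peaked 2 days later. It was at 57.4% on day 10, and only 11.8% and 5.35% were left on days 13 and 16. On day 10 HPCAL4 was at 55.9% of its own highest mean, MGP at 20.3% and CFI at 12.2%. HPCAL4 therefore reached its upper range earliest of the 3 late genes and CFI latest. On day 13 the shares were 75% for HPCAL4, 60.9% for MGP and 53.3% for CFI. Peak means were 170.5 ± 68.2 TPM for ALOX15 (SD, n = 4), 151.8 ± 17.3 TPM for MGP (SD, n = 3), 112.2 ± 31.8 TPM for CFI (SD, n = 3) and 109.4 ± 36.8 TPM for HPCAL4 (SD, n = 3). The wells behind these peak means overlapped for each pair of neighbours in that order.

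**Figure D2:**
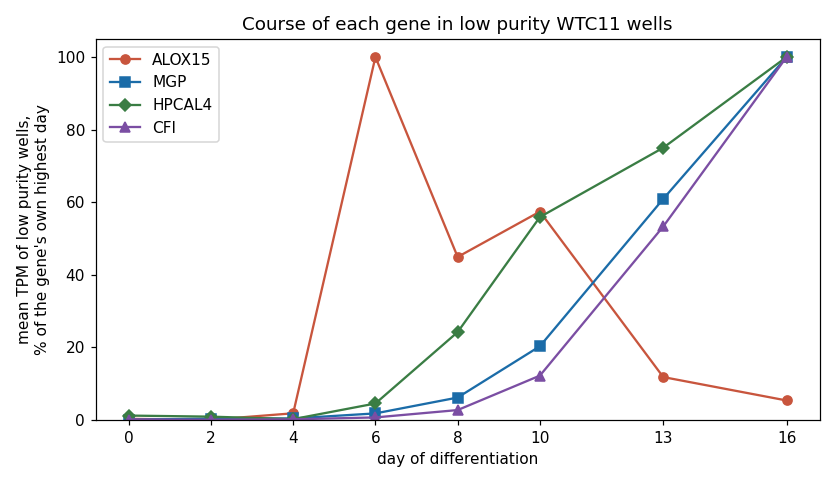
Mean TPM of the low purity wells (y axis, as a percentage of the highest day mean of the same gene) against the day of differentiation (x axis), 1 line per gene. ALOX15 is at 100% on day 6 and 5.35% on day 16, while MGP, HPCAL4 and CFI reach 100% on day 16.

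Days 0, 2 and 4 were not used to choose the genes and were tested. The test was limma-trend on log2(TMM-scaled TPM + 1) over 25664 genes, with p adjusted by Benjamini-Hochberg. A gene was tested if it reached 1 TPM in 3 or more libraries. MGP and CFI reached 1 TPM only in low purity wells from day 6 on. They entered the test only through the days that chose them, so their results here are not independent of that choice. Calls needed an adjusted p under 0.05 and a log2 fold change of 1 or more in size. On day 4, 1 of the 4 genes was called, beside 7.84% of all genes tested, and all its low purity wells were above all high purity wells, as in 15.8% of genes. This was ALOX15, with a log2 fold change (high minus low) of -1.74 (SE 0.22, limma adjusted p = 9.96e-09), and an exact two-sided permutation test over the 4 against 4 wells gave p = 0.0286, the smallest it can give. MGP (-0.35), CFI (-0.21) and HPCAL4 (0.03) were not called on day 4, and their wells overlapped between classes. With edgeR on the reads recovered from the TPM, CFI was called as well (log2 fold change -3.82, adjusted p = 0.041), from 6 reads in the low purity wells and none in the high purity wells.

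On day 2 the order of ALOX15 was the opposite one. The high purity wells held 0.437, 0.587, 0.595 and 1.06 TPM, from 4 to 14 reads, and the low purity wells held 0, 0, 0.14 and 0.153 TPM, at most 1 read. No low purity well reached the lowest high purity well, an order that 15.7% of the genes tested shared, and the exact permutation p was 0.0286. The limma log2 fold change of 0.65 (SE 0.22, adjusted p = 0.0163) missed the fold threshold, so none of the 4 genes was called on day 2, beside 5.32% of all genes. With a pseudocount of 0.1 in place of 1 the ALOX15 difference was 2.29 and called, and edgeR on the recovered reads gave 3.12 and called it too. ALOX15 thus changed sides between day 2 and day 4. MGP on day 2 was at 0.389 to 0.98 TPM in low and 0.138 to 0.306 TPM in high purity wells, with no overlap, as in 18.3% of the genes tested, and an exact permutation p of 0.0286, but on 1 to 5 reads per library, and limma did not call it (-0.34, adjusted p = 0.228). On day 0 none of the 4 genes was called, beside 1.07% of all genes, and the exact permutation p ran from 0.0571 for HPCAL4 to 0.886 for MGP.

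The RNA-only libraries held the genes in 6 further time series. Here the pattern appeared in 1 differentiation, the low purity H9 differentiation at passage 55. In its stage 4 library, of day 7, ALOX15 was at 5.35 TPM (238 reads), CFI at 5.05 TPM (224 reads), MGP at 2.03 TPM (65 reads) and HPCAL4 at 15.6 TPM (1235 reads). The high purity H9 library of the same stage had 12, 2, 10 and 7 reads of these genes. All 4 genes were thus higher in the low purity library of this line.

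With 1 library per class in H9, only counting error can be given for the ratios of low to high purity reads, each as a share of its library. At stage 4 the ratio was 21.0 for ALOX15 (exact 95% interval 11.8 to 41.2) and 6.88 for MGP (3.51 to 15.0). It was 186.7 for HPCAL4 (90.4 to 465.4), and for CFI it was 118.5 (32.4 to 984.9) on 2 high purity reads. HPCAL4 was already apart at stage 3, with 8.47 TPM (999 reads) in the low and 0.457 TPM (44 reads) in the high purity library. ALOX15 at stage 3 had 25 and 6 reads, MGP 3 and 2, and CFI 5 and 1. In H9 low purity HPCAL4 therefore stood high earlier than the other 3 genes, while in the WTC11 wells ALOX15 was first.

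The other 5 differentiations had little of any of the 4 genes at stage 4. Their ranges were 0.068 to 0.291 TPM for ALOX15, 0 to 0.311 TPM for MGP, 0.067 to 0.19 TPM for HPCAL4 and 0 to 0.085 TPM for CFI. Low purity IMR90-4 had 9, 2, 7 and 1 reads of ALOX15, MGP, HPCAL4 and CFI there, and high purity IMR90-4 had 15, 0, 7 and 0. The low purity IMR90-4 library was therefore as low as the high purity libraries.

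WTC11 in the RNA-only experiment did not repeat the levels of the multi-omic wells, although its low purity differentiation carries the same passage number, 69. Its day 6 library held ALOX15 at 0.291 TPM (19 reads), MGP at 0.064 TPM (3 reads), HPCAL4 at 0.19 TPM (22 reads) and CFI at 0.031 TPM (2 reads). The high purity WTC11 library of that day had 4, 4, 15 and 5 reads. The ALOX15 ratio was 4.02 with an exact 95% interval of 1.34 to 16.3, and the intervals of the other 3 genes included 1. The multi-omic low purity wells of day 6 ran from 125.6 to 270.0 TPM for ALOX15. The 2 tables come from different library kits and were normalized separately, so the levels are set side by side with no test, and the labels do not say whether passage 69 is the same differentiation in both.

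Before differentiation, at stage 1, 2 of the genes were measurable in all 3 lines. HPCAL4 was at 2.99 TPM in low and 4.00 TPM in high purity H9, at 0.192 and 0.554 TPM in IMR90-4, and at 0.956 and 0.873 TPM in WTC11. ALOX15 was at 0.578 and 0.95 TPM in H9, 0.324 and 0.476 TPM in IMR90-4, and 0.0997 and 0.122 TPM in WTC11. Both H9 libraries were above those of the other 2 lines for HPCAL4 and for ALOX15, and the classes of IMR90-4 differed in HPCAL4 as well, with a low to high ratio of 0.354 (exact 95% counting interval 0.203 to 0.594). At stage 2 ALOX15 had at most 5 reads and HPCAL4 at most 33 reads in any library. MGP and CFI had at most 2 reads in any stage 1 library.

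**Figure D3:**
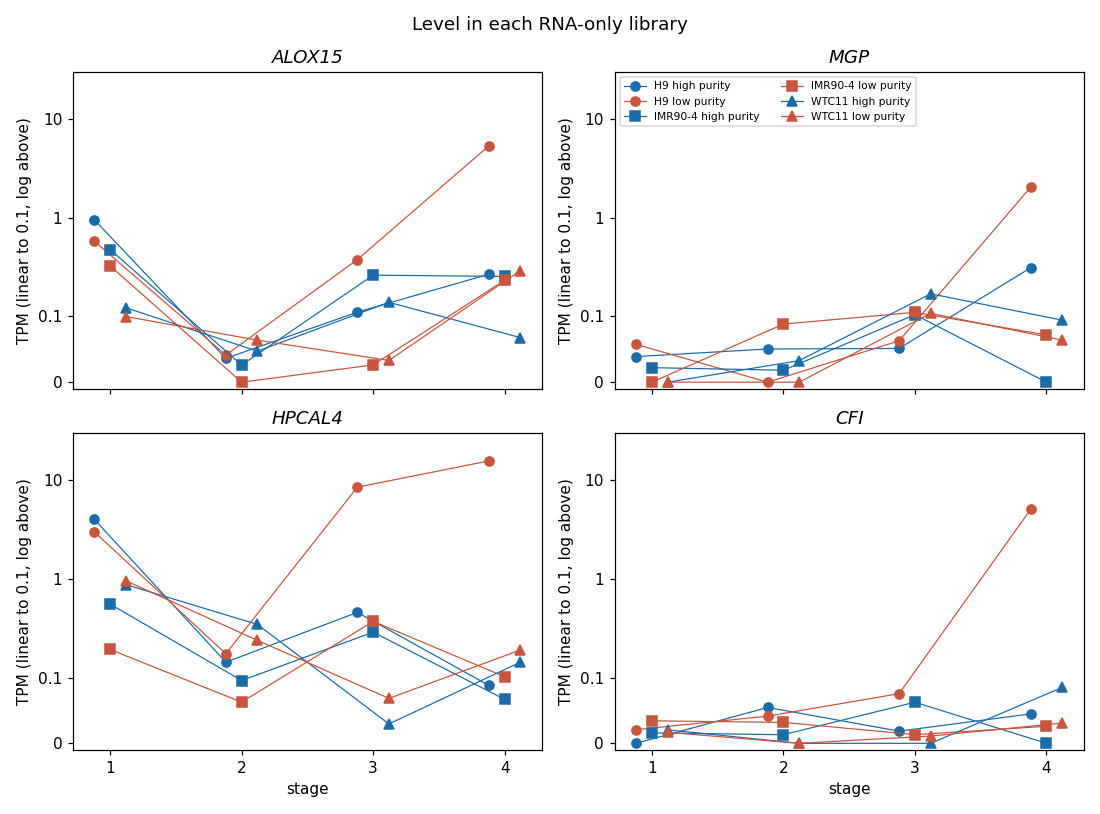
TPM of each gene (y axis, linear up to 0.1 and logarithmic above) at each of 4 stages (x axis) in the 24 RNA-only libraries. Points are single libraries, joined by a line within a differentiation, circles for H9, squares for IMR90-4 and triangles for WTC11, red for low and blue for high purity. Low purity H9 stands apart at stage 4 for all 4 genes and at stage 3 for HPCAL4.

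Over the 3 lines the purity difference was tested with edgeR's quasi-likelihood method on counts of 23848 genes, with Benjamini-Hochberg adjustment. The share of genes called was 0% at each of the 4 stages, so a test with 1 library per line, class and stage called none of the 4 genes either. Genes with an unadjusted p under 0.05 numbered 354, 1896, 1798 and 2876 from stage 1 to stage 4, and DESeq2 called 0, 79, 51 and 205 genes. At stage 4 the log2 fold change (high minus low) was -2.26 for ALOX15 (edgeR adjusted p = 0.40) and -2.77 for HPCAL4 (adjusted p = 0.48). Without H9 these were -0.83 and -0.42. MGP and CFI did not pass the filter on low counts. Without the filter, edgeR gave -1.80 for MGP (adjusted p = 0.779) and -3.44 for CFI (adjusted p = 0.616).

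The change from stage 3 to stage 4 was tested over the 6 differentiations. ALOX15 had a log2 fold change of 1.83 (edgeR adjusted p = 0.144) and HPCAL4 one of -0.36 (adjusted p = 0.879), and neither was called, beside 3.72% of all genes. Without the low purity H9 differentiation ALOX15 changed by 1.00 and HPCAL4 by -1.09. ALOX15 had more reads at stage 4 than at stage 3 in 4 of 6 differentiations, namely low purity H9 (25 to 238 reads), IMR90-4 (2 to 9) and WTC11 (3 to 19) and high purity H9 (6 to 12).

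Markers of several cell types also differed between the classes, in directions that depended on the list and the day. The share of all genes called higher in low and higher in high purity was 4.22% and 3.62% on day 4, 5.19% and 3.61% on day 6, and 7.65% and 5.76% on day 16. In the low purity wells the summed TPM of 9 fibroblast and stromal markers was 1283 to 1331 on day 4, and 2655 to 4116 on day 6. By day 16 it had reached 8723 to 11806. In the high purity wells the sums of those days were 375 to 539, 802 to 1069 and 469 to 562. Of the 9, limma called 4 higher in low purity on day 4, 5 on day 6 and 8 on day 16, while THY1 was called higher in high purity on days 4 and 6. LUM, DCN and COL3A1, which encode lumican, decorin and a fibrillar collagen chain, had log2 fold changes of -4.84, -6.00 and -5.33 on day 16. WT1 and TBX18, transcription factors of the epicardium, were at -4.67 and -3.85 on day 6, and of 9 epicardial markers 5 were called higher in low purity on day 6 and 7 on day 16. The sum of these 9 did not follow that count, at 1310 to 1557 TPM in low and 1874 to 2235 TPM in high purity wells on day 6, with ranges that overlapped on day 16 (944.2 to 1044 and 784.4 to 1007 TPM). The 9 cardiomyocyte markers changed sides. On day 4, when ALOX15 was called, they summed to 1134 to 1303 TPM in low and 114.2 to 144.4 TPM in high purity wells, and 7 of 9 were called higher in low purity. By day 16 the sums were 4032 to 5932 TPM in low and 11036 to 13228 TPM in high purity wells, and 6 of 9 were called higher in high purity. Of the cell types these genes are best known from, haematopoietic and macrophage markers were low on day 16. They summed to 11.2 to 13.2 TPM in low and 6.53 to 10.1 TPM in high purity wells. TYROBP was at 0 in every well of that day, and none of the 3 markers of this list that could be tested was called. AIF1 is not read, since it lies in the major histocompatibility region, where CSNK2B, a kinase subunit that all cells use (chosen after its values were seen), was also listed at 0 in all 56 multi-omic and all 24 RNA-only libraries. Neuronal markers summed to 55.0 to 68.8 TPM in low and 19.1 to 23.4 TPM in high purity wells on day 16, and 3 of 7 were called higher in low purity. Smooth muscle and pericyte markers had 5 of 8 called higher in low purity on day 4 and 4 of 8 on day 16. Their sum on day 16 was 1279 to 1422 TPM in low and 247.1 to 274.5 TPM in high purity wells. MYH11, the marker of this list that could not be tested, was at 0 in every well of both classes on every day. Chondrocyte markers had 1 of 7 called in each direction on day 16. Hepatic and endoderm markers had 3 of 9 called higher in low and 2 higher in high purity, beside 7.65% and 5.76% of all genes. The hepatic and endoderm sum on day 16 was 551.2 to 1486 TPM in low and 96.4 to 554.2 TPM in high purity wells, ranges that overlapped. Endothelial markers had 6 of 9 called higher in high purity on day 6. On day 16 their sum was 157.5 to 236.5 TPM in low and 37.8 to 44.7 TPM in high purity wells, with 2 of 9 called higher in low and 3 higher in high purity. Their part in the levels of the 4 genes was not tested.

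In the RNA-only libraries the fibroblast and stromal markers were also highest where the genes were. At stage 4 the fibroblast and stromal markers summed to 1623 TPM in low and 450.7 TPM in high purity H9, with all 9 at 1 TPM or more in the low purity library. They summed to 229.7 and 320.7 TPM in IMR90-4 and to 200.8 and 287.9 TPM in WTC11, low purity given first. LUM was at 322.5 TPM and WT1 at 39.5 TPM in low purity H9, against 13.2 and 0.542 TPM in low purity WTC11. The sum of the 9 epicardial markers, WT1 among them, went the other way in H9, at 544.8 TPM in low and 877.1 TPM in high purity. KRT19 alone made up 382.5 and 849.3 TPM of these sums, and ALDH1A2 and MSLN were also higher in high purity. WT1, TBX18 (17.7 against 0.825 TPM), BNC1 (85.8 against 11.7 TPM), TCF21, UPK3B and SEMA3D were higher in low purity H9. TNNT2, cardiac troponin T, was at 46.3 TPM in low purity H9, the lowest of the 6 stage 4 libraries, and at 122.5 TPM in low purity WTC11.

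**Figure D4:**
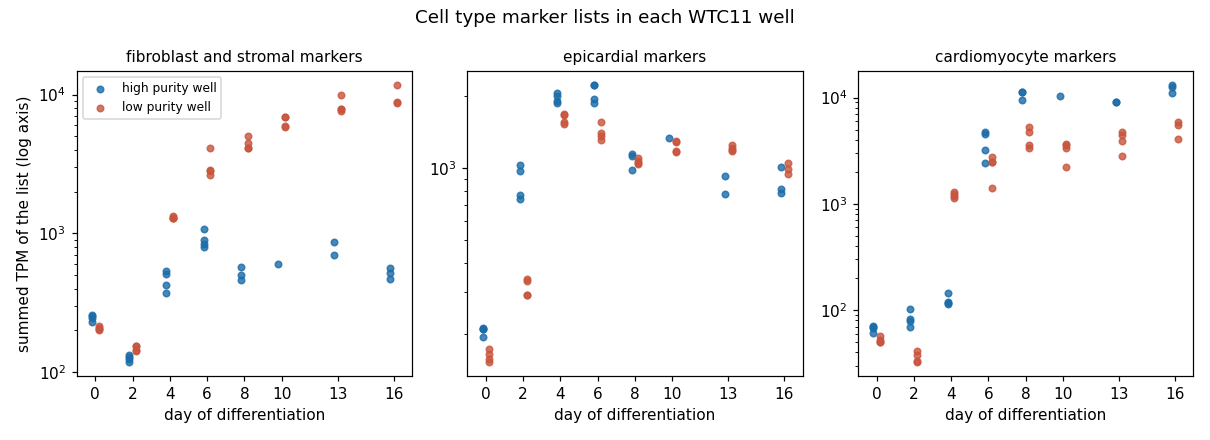
Summed TPM (y axis, logarithmic) of 9 fibroblast and stromal, 9 epicardial and 9 cardiomyocyte markers against the day of differentiation (x axis) in each WTC11 well, blue for high and red for low purity. On day 16 the fibroblast and stromal sum is 8723 to 11806 TPM in low and 469 to 562 TPM in high purity wells, while the epicardial sums overlap.

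A correlation over 8894 genes, leaving out the 4, placed the RNA-only libraries beside the multi-omic group means on log2(TPM + 1). The stage 4 library of low purity H9 was nearest to the low purity wells of days 6 and 8 (both Pearson r = 0.700). The stage 4 library of low purity WTC11 was nearest to the high purity wells of day 6 (0.723). Its nearest low purity wells were those of day 4 (0.688), with 0.668 for those of day 6. The low purity IMR90-4 library was nearest to the high purity wells of day 6 as well (0.717). These are correlations across genes of libraries from different kits, given as a description. The 1 library in which the 4 genes stood high was thus the 1 stage 4 library whose nearest group was a low purity one. The stage 3 library of low purity H9 was also nearest to the low purity wells of day 6 (0.684). That stage 3 library held HPCAL4 at 8.47 TPM, but ALOX15 at 0.376, MGP at 0.0629 and CFI at 0.0754 TPM.

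The genes around each protein's pathway were followed in 6 lists, 79 of whose genes could be tested besides the 4. Of the 79, limma called 5 higher in low and 10 higher in high purity wells on day 6, and 17 and 6 on day 16. Among all genes 5.19% were called higher in low and 3.61% higher in high purity on day 6, and 7.65% and 5.76% on day 16. The medians of the 6 lists on day 16 lay between -0.23 and 0.11 (log2, high minus low), and the median of all genes was 0. The list medians thus lay near that of all genes.

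Around ALOX15, 13 eicosanoid genes were tested, and 3 were called higher in low and 1 higher in high purity on day 16. PTGIS, prostacyclin synthase, averaged 118.9 TPM in low purity wells of day 16 against 8.35 TPM in high purity wells (log2 fold change -3.48). PTGS1, a cyclooxygenase, was at -3.32 and PLA2G4A, the phospholipase that frees arachidonic acid, at -1.28. ALOX15B, the other 15-lipoxygenase, changed sides, with -1.45 on day 6 and 1.14 on day 16. ALOX12, another lipoxygenase, was not called on any day (-0.27 on day 6, -0.20 on day 16), and PTGS2, the inducible cyclooxygenase, was called higher in high purity on day 8 only (1.43). GPX4, which reduces lipid peroxides in membranes, had 822 TPM in low and 922 TPM in high purity wells on day 16 and was not called. ALOX5, the lipoxygenase of leukotriene synthesis, did not pass the filter, and neither did its partner ALOX5AP. Of 7 genes of IL4 and IL13 signalling, only the receptor chain IL4R was called, higher in high purity on days 6, 8, 13 and 16 (1.14 on day 6 and 1.83 on day 16). IL13RA1, the IL13 receptor chain, had -0.07 on day 6, and STAT6, the transcription factor downstream, 0.63, neither called.

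Around MGP, 17 genes of the vitamin K cycle and its carboxylated proteins were tested. On day 8, 1 was called higher in low and 5 higher in high purity, beside 7.5% and 4.66% of all genes, and on day 16 it was 2 and 1. GGCX, the carboxylase that modifies MGP, was at 0.69 on day 6 and -0.53 on day 16, and VKORC1, which regenerates vitamin K, at 0.41 and -0.25, all under the fold threshold. GAS6, a carboxylated ligand of receptor kinases, was at -0.15 on day 16. On day 16 PROS1, protein S of the clotting system (-1.03), and NQO1, a quinone reductase (-1.10), were higher in low purity, and PRRG3, a membrane Gla protein, was higher in high purity (2.33). Among 15 genes of mineralisation and BMP signalling, 4 were called higher in low and 2 higher in high purity on day 16. BMP4, at 103.5 TPM in low and 10.6 TPM in high purity wells, was at -2.97. BMP2 went the other way, with 78.2 and 192.4 TPM (1.51). RUNX2, a transcription factor of bone formation, was at -2.67 and ENPP1, which makes the mineralisation inhibitor pyrophosphate, at -2.47. AHSG, another calcification inhibitor, was also at -2.47, with high purity wells from 2.31 to 16 TPM. SPP1, osteopontin, was not called on day 16 (0.13).

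Around HPCAL4, 12 other neuronal calcium sensors were tested, and 3 were called higher in low and 1 higher in high purity on day 16. KCNIP1, a potassium channel subunit of the family, held 4.63 TPM in low and 0.0741 TPM in high purity wells (-2.45). HPCAL1, a close relative of HPCAL4, held 3.89 and 0.643 TPM (-1.51), and GUCA1A, a guanylate cyclase activator, was at -1.23. KCNIP2, the subunit of the cardiac transient outward current, was higher in high purity (1.91 on the log2 scale, 119.5 against 36.8 TPM). NCS1 (0.06), VSNL1 (-0.41) and NCALD (-0.06), other members of the family, were not called on day 16. In low purity wells HPCAL4 was thus higher on day 16 than each of these in TPM, 109.4 against at most 36.8.

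Around CFI, 15 complement genes of a list of 35 passed the filter, and 5 were called higher in low and none higher in high purity on day 16. C3, whose active fragment CFI cuts, held 36.2 TPM in low and 5.04 TPM in high purity wells on day 16 (-2.58), after the opposite order on day 6 (2.09, with 1.10 and 8.35 TPM). SERPING1, the C1 inhibitor, was at -2.27, CLU, clusterin, at -2.03, C1R, a protease of the classical pathway, at -1.40 and VTN, vitronectin, at -1.16. C1S, the partner protease of C1R, was at -0.20. CD46, the membrane cofactor of CFI, was at 80.3 and 68.2 TPM and not called on any day, and neither was CD55, which speeds the decay of convertases (-0.04 on day 16). CFB, C2, C4A and C4B lie in the major histocompatibility region as well, and their values near 0 are not read.

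**Figure D5:**
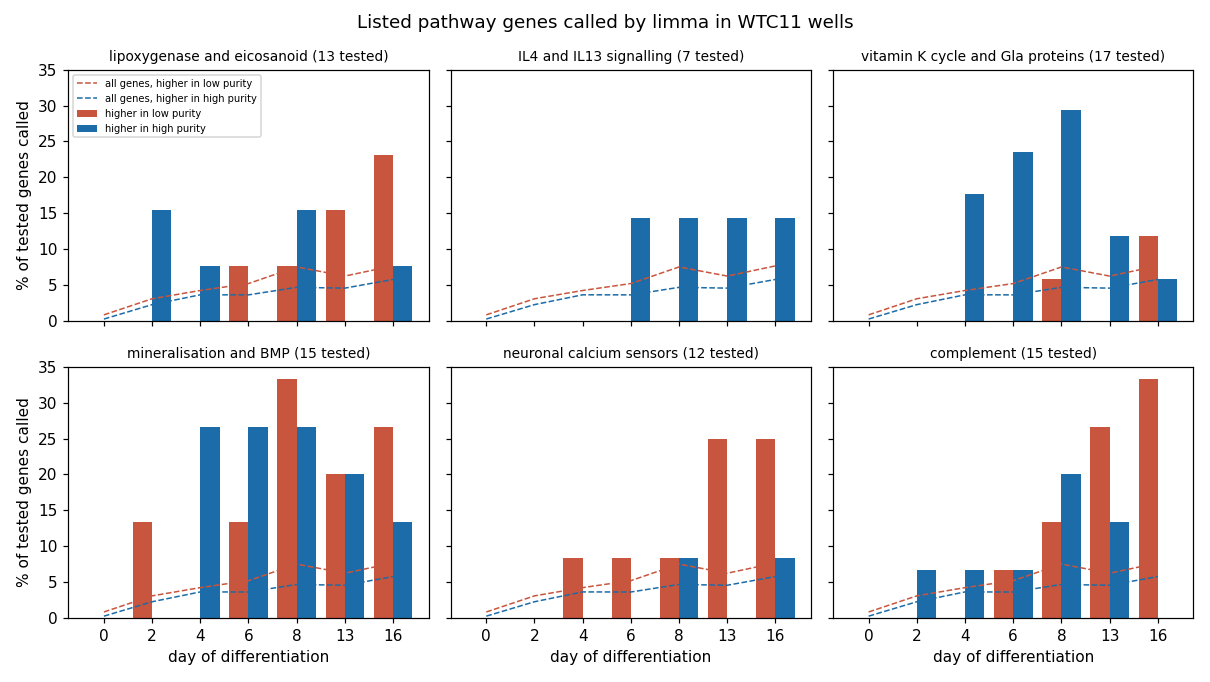
Percentage of tested genes called by limma (y axis) on each day (x axis) in 6 pathway lists in WTC11 wells, red bars for genes higher in low purity and blue bars for genes higher in high purity. Dashed lines give the same percentage over all genes tested, 7.65% and 5.76% on day 16.

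The genes whose course was most like that of each of the 4 were found by Pearson r of log2(mean TPM + 1) over the 16 multi-omic class and day means, among 13366 genes. MGP and CFI were in each other's top 5 (r = 0.986). HPCAL4 had r = 0.965 with MGP and 0.934 with CFI, and ALOX15 had 0.557 to 0.736 with the other 3 genes. Nearest to ALOX15 were TYRP1 (0.992), a melanosome enzyme, MEOX1 (0.986), a homeobox factor of somites, LOC105378521 (0.986), LOC729558 (0.978) and PWRN1 (0.975). Nearest to MGP were LOC105372977 and OLR1, the receptor for oxidised low density lipoprotein (both 0.989), CFI, LINC02461 (0.979) and SLC18A3, the vesicular acetylcholine transporter (0.978). Nearest to HPCAL4 were CRISPLD2 (0.990), a secreted protein, the collagen gene COL8A2 (0.981), LINC01638 (0.977), EGFL6 (0.974) and OGFRL1 (0.974). Nearest to CFI were OLR1 (0.993), LOC105375265 (0.989), DNM3OS (0.986), MGP and LOC105372977 (0.982). The points share libraries and the same 2 differentiations, and a shared course says nothing on control.

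Part of this likeness held in the RNA-only experiment, and it rested mostly on the same H9 library. Over the 24 RNA-only libraries TYRP1 had r = 0.881 with ALOX15 and OLR1 0.985 with CFI. Without the stage 4 library of low purity H9 these were 0.272 and 0.0535. MGP and CFI went from 0.964 to 0.246. CRISPLD2 with HPCAL4 went from 0.858 to 0.731. Other pairs were low from the outset, such as EGFL6 with HPCAL4 (0.226), MEOX1 with ALOX15 (0.42, and -0.022 without the library), OGFRL1 with HPCAL4 (0.489 and -0.078) and COL8A2 with HPCAL4 (0.528 and 0.428). In that H9 library LINC01638 was at 28.3 TPM, TYRP1 at 17.0 TPM and CRISPLD2 at 20.8 TPM, and in high purity H9 at 0, 0.0416 and 1.88 TPM.

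The genes next to the 4 on the chromosome differed in what they did. ART4 and ERP27, on either side of MGP, were called higher in low purity on day 6 (-1.96 and -1.32) and on day 16 (-1.71 and -2.08). ART4 reached 5.49 TPM in low purity wells on day 6, when MGP was at 2.72 TPM, and 4.58 TPM on day 16, when MGP was at 151.8 TPM. NT5C1A, which ends 6541 bases from HPCAL4, was at 6.67 TPM in low purity wells of day 16 with no read in the high purity wells, and PPIE on the other side was not called on any day. PLA2G12A, a secreted phospholipase gene 912 bases from CFI, was called higher in low purity on days 6, 8, 13 and 16 (-1.11 on day 16), at 164.2 against 65.1 TPM, and GAR1 on the other side was not called. SMTNL2 and PELP1, beside ALOX15, were not called on any day (0.00 and 0.03 on day 6).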

How the data were processed

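Poly(A) RNA was sequenced in 56 WTC11 libraries and total RNA in 24 libraries of H9, IMR90-4 and WTC11. The submitters' processing notes name STAR 2.5.3a, featureCounts 2.0.3 and hg38, with no roles given. The authors deposited raw read counts per gene and TPM for each experiment; how they computed TPM is not given in the sources used here. Names of count and TPM columns matched by content for all 24 RNA-only libraries, whose counts were used without 36 broken lines of 6 genes, and for 0 of 56 multi-omic libraries, where 50 count columns matched TPM columns of other names. No source says which names are right, and every multi-omic value rests on this choice. By the TPM names, 54 of 55 columns had their nearest column in the same class and day, and NANOG, a pluripotency gene, was at 91.5 to 107.8 TPM on day 0 and at most 0.368 TPM from day 6 on. By the count names the day 0 wells had at most 0.427 CPM of NANOG. The deposited TPM and its column names were used, and depth is given as reads recovered from TPM.

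TPM values of genes reaching 1 TPM in 3 or more libraries were scaled with TMM and fitted by limma 3.58.1 as log2(TPM + 1), with 16 class and day means and 40 residual degrees of freedom; day 10 was not tested. RNA-only counts that passed filterByExpr were fitted with edgeR 4.0.16 (8 residual degrees of freedom for purity, 15 for stage) and, as an alternative, DESeq2 1.42.0, in R 4.3.3. Both tests were run on simulated data with a single fixed spread for all genes and no differences between lines or days. The real libraries differ in this, so nothing is read from it on the power or error of the tests. Fold changes are high minus low.

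The 4 genes, the 6 pathway lists and the 9 marker lists were chosen with earlier results of these data known. Pathway genes were named by role, or as up to 3 called genes per list with the largest change on day 16; for each of the 4 genes the 5 genes most alike and the nearest protein-coding gene on either side were named. Alternatives were another pseudocount, scaling, filter, test or call rule, a block by well number, and leaving out wells, lines or differentiations. Intervals and floors (3 reads) cover counting error only. The sources name no sequencing batch. Promoter sequences were taken from RefSeq for 2 of the 4 genes. Levels of the 4 genes on days 6 to 16 were not tested.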

Additional observations from a re-analysis of the deposited data

Results flagged for a closer look

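In 6 of 42 groups of wells, 1 well stood apart from the others of its class and day. The rule marks about 1 in 20 groups, or 2.1, where values are normally distributed, which counts of a few reads are not. A group with reads in 1 well alone is always marked, so no excess is read from this number. MGP in a high purity well of day 0 was at 0.618 TPM (7 reads) against 0 to 0.1 TPM in the others. MGP in a low purity well of day 2 was at 0.98 TPM (5 reads). CFI on day 2 was at 0.147 TPM (2 reads) in 1 high purity well and at 0.152 TPM (1 read) in 1 low purity well, with the other wells at 0. HPCAL4 in a low purity well of day 0 was at 1.90 TPM (21 reads), above 1.02 to 1.14 TPM. MGP in a low purity well of day 6 was at 5.72 TPM (27 reads), above 1.51 to 2.00 TPM. That same well had the highest ALOX15 (270.0 TPM) and HPCAL4 (10.8 TPM) and the highest fibroblast and stromal marker sum (4116 TPM) of the day. Its CFI was at 0.915 TPM, below the 1.30 TPM of another well. Its cardiomyocyte marker sum was the lowest of the day (1417 TPM).

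At stage 3 the lines differed in the sign of the ALOX15 difference. Low minus high purity was 0.266 TPM in H9 (25 against 6 reads) and -0.235 TPM in IMR90-4 (2 against 21 reads). This difference between lines was not tested.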

How the results depend on the processing

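The call of ALOX15 on day 4 held under every alternative run, and the peak days held under both. The number of the 4 genes called changed on day 2, from 0 to 1 with a pseudocount of 0.1 and to 1 with edgeR on recovered reads, and on day 4, from 1 to 2 with edgeR. With a minimum of 10 TPM onset was day 10 for MGP, day 8 for HPCAL4 and day 10 for CFI, and no value could be given for ALOX15, whose day 16 mean is under that minimum. Listed pathway genes called on days 0, 2 and 4 were 2, 10 and 17 with a pseudocount of 0.1. Without the fold threshold they were 15, 35, 33, 39, 47, 38 and 39 on days 0, 2, 4, 6, 8, 13 and 16. Over 56 libraries MGP shared 3 of 5 most alike genes with those over group means. Without TMM scaling the median of all genes lay at -0.18, -0.13 and -0.12 (log2, high minus low) on days 8, 13 and 16.

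Of 231 values of the 4 genes under the alternatives, 14 had another sign than the reported value, in each case for a value that was not called. Leaving out wells gave -0.14 to 0.14 for ALOX15 on day 0, -0.063 to 0.19 for MGP on day 0, -0.13 to 0.014 for CFI on day 0, -0.050 to 0.052 for CFI on day 2, -0.16 to 0.0028 for HPCAL4 on day 2 and -0.012 to 0.093 for HPCAL4 on day 4. CFI on day 2 was at -0.0016 without TMM scaling. Without IMR90-4, ALOX15 was at -0.35 at stage 2 and -0.31 at stage 3. The cause was not tested.

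Well numbers did not pair the wells (correlations of deviations from -0.0040 to 0.0319), and with the well number as a replicate block ALOX15 on day 4 was at -1.74 and 1 of the 4 genes was called, as without it. Depth limits MGP and CFI before day 6 and in most RNA-only libraries, where they rest on 0 to 10 reads.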

Other observations

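Wells that held more of 1 of these genes often held more of the others. On day 16 the same low purity well had the highest level of all 4 genes, with ALOX15 at 13.2, MGP at 170.7, HPCAL4 at 151.9 and CFI at 148.5 TPM, and the highest fibroblast and stromal marker sum, 11806 TPM against 8723 and 8789 TPM. On day 13 a single well was highest for all 4 as well, with ALOX15 at 27.1, MGP at 99.4, HPCAL4 at 120.5 and CFI at 75.6 TPM, and its marker sum of 9875 TPM was above the 7624 to 7941 TPM of the other 3 wells. On day 8, too, a single well was highest for all 4. CFI did not follow on days 6 and 10. The well with the most ALOX15, MGP and HPCAL4 held CFI at 0.915 TPM on day 6, against 1.30 TPM in another well. On day 10 it was 12.9 against 15.1 TPM. The wells named for days 13 and 16 had the lowest cardiomyocyte marker sums of their days, 2792 and 4032 TPM. Wells of different days are different cultures, and with 3 or 4 wells per day no correlation is given. The part of the stromal and cardiomyocyte markers in this was not tested.

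Low purity H9 also held SPP1, osteopontin, at 133.3 TPM at stage 4, where the other 5 differentiations held 0.553 to 9.07 TPM. C3, whose fragment CFI cuts, was at 0.518 TPM in that library and at 19.7 TPM in high purity H9, the same order between classes as in the WTC11 wells on day 6. MYH6, a cardiac myosin chain, was at 0.0305 TPM in that library and at 94.2 to 410.9 TPM in the other 5 differentiations at stage 4.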
